A study of Mus musculus with 2 samples.

Results

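Type I interferon-stimulated genes are described here as 39 genes chosen by symbol, of 32285 genes in the count tables. The list was drawn up from genes known to answer type I interferon, with earlier results of these data known. Of the 39 genes, 38 had a row in the tables. Mx1 had none and was not analysed here. The cells were CD45+ cells sorted from the brains of 12-week-old mice, 4 control mice (Cre-negative Arpc4 fl/fl littermates) and 4 Arpc4ΔCx3cr1 mice (Tg(Cx3cr1-Cre) Arpc4 fl/fl), so all 8 mice carried the floxed Arpc4 alleles and only the latter carried Cre. Cre was driven by the Cx3cr1 promoter, which is active in microglia and in other mononuclear phagocytes, and ARPC4 is a subunit of the Arp2/3 complex that branches actin filaments. The cells of each mouse carried their own oligonucleotide tag, the 8 mice were pooled into 1 library, and 3′ ends of transcripts were counted as unique molecular identifiers (UMIs), each of which stands for 1 captured RNA molecule. The mice differed in genotype but shared the library, and no barcode occurred in more than 1 mouse.

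Type I interferons (interferon-α and interferon-β) bind the receptor made of IFNAR1 and IFNAR2, whose kinases JAK1 and TYK2 pass the signal to transcription factors. A complex that holds STAT2 and IRF9 then binds the interferon-stimulated response element in promoters and starts transcription of antiviral genes. In the brain, microglia both sense nucleic acids and answer interferon, and microglia with high levels of these genes are known from development, ageing and disease.

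The response element holds a pair of GAAA units with any 2 bases between, written GAAANNGAAA, or TTTCNNTTTC on the other strand. It was searched for on both strands of RefSeq promoters (build GRCm38.p6), which reach from 250 bases before to 50 bases after a start of transcription. Of the 39 genes, 30 had a promoter in the table, and 20 of these 30 (66.7%) held the motif in at least 1 promoter. Over all 27025 genes of the table the share was 3.99%, and over the 9631 genes of the table that were tested in microglia and are no member it was 3.76%. Among other interferon-stimulated genes 20 of 54 (37.0%) held it. A promoter with several matches, such as the 3 of Isg15, which may overlap, was counted once. The 160 bases before the start are shown for 6 members of several roles, 5′ to 3′ on the strand of the gene, with the motif in capitals. All 6 hold a match, which not every listed promoter does, and no other motif was searched for.
Isg15: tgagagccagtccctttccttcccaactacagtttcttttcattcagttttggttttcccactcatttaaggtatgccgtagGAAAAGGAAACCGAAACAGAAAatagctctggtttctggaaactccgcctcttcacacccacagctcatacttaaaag
Ifit1: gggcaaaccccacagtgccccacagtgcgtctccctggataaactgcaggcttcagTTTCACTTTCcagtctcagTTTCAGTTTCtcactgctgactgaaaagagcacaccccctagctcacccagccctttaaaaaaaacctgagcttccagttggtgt
Rsad2: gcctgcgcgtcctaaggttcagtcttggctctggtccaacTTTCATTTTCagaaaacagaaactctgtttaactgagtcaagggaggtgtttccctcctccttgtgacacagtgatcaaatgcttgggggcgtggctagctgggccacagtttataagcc
Oas3: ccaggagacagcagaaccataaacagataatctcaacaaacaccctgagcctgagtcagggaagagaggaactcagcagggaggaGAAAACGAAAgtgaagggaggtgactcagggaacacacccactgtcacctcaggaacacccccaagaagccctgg
Ifi207: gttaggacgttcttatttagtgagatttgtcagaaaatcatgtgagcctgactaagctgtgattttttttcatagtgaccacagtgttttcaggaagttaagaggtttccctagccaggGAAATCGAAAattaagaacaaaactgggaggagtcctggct
Bst2: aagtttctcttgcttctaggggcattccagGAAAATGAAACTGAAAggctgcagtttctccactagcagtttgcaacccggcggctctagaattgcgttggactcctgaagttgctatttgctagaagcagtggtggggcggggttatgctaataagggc
They lie at chr4:156200819-156200978 (Isg15, minus strand), chr19:34640729-34640888 (Ifit1, plus strand), chr12:26456453-26456612 (Rsad2, minus strand), chr5:120777660-120777819 (Oas3, minus strand), chr1:173741810-173741969 (Ifi207, minus strand) and chr8:71537473-71537632 (Bst2, minus strand). Counted from the start of transcription, the first match began at −78 in Isg15, −104 in Ifit1, −120 in Rsad2, −75 in Oas3, −41 in Ifi207 and −130 in Bst2. A match is a description of the letters and not a site shown to bind. Several members are neighbours. Ifi213, Ifi207, Ifi204 and Ifi211 lie at chr1:173566283-173913046, Ifit2, Ifit3, Ifit3b and Ifit1 at chr19:34550694-34650009, Oasl2 and Oasl1 at chr5:114896936-114937915, and Oas2, Oas3 and Oas1a at chr5:120730333-120907521 (GENCODE vM21, GRCm38). Such neighbours are close copies of each other (the Ifi200 genes, Ifit3 and Ifit3b, the OAS and Schlafen genes, and the Trim30 and Phf11 genes with relatives outside the list), so counting could split or lose their reads and their single values are uncertain. Exons of Irf9 also overlap those of Rnf31, and exons of Rtp4 those of Gm45338, on the same strand.

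Of 19863 cells, 17009 were microglia-like (7781 from control and 9228 from Arpc4ΔCx3cr1 mice), 424 were CAM-like (CNS-associated macrophages), 345 monocyte-like and 309 T cell-like. The T cell-like cluster was led by Gzma, Nkg7 and Cd3g and may hold natural killer cells. Sums over microglia-like cells held 4182873 to 11677787 UMIs per mouse. Levels are given as CPM, the UMIs of a gene scaled to a common total, and are not scaled by length because each molecule is counted once at its 3′ end. Arpc4 had 216 to 235 CPM in control and 138 to 153 CPM in Arpc4ΔCx3cr1 mice, a log2 fold change of −0.63 ± 0.05 (SE, adjusted p = 5.4e-06). The deleted part of Arpc4 is not given in the sources used here, and its exons overlap those of Ttll3. All 12 microglia markers were lower in Arpc4ΔCx3cr1 microglia, with a summed level of 24722 to 25097 CPM in control and 9960 to 14022 CPM in Arpc4ΔCx3cr1 mice, so the class was the same by name but not by level. Xist had 1444 CPM in Arpc4ΔCx3cr1 mouse 1 and 3.44 to 13.8 CPM in the other 7 mice. The methods set aside 1 female Arpc4ΔCx3cr1 mouse without a number in the labels, so the counts of members called are also given without mouse 1.

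All 38 measured members were higher in Arpc4ΔCx3cr1 than in control microglia. Each passed the threshold (adjusted p under 0.05 over 12726 genes tested with edgeR), and for each of the 38 all 4 Arpc4ΔCx3cr1 mice lay above all 4 control mice. Across all genes tested 22.9% were higher by the same test, 23.1% were lower, and 21.9% had all Arpc4ΔCx3cr1 mice above all control mice. The list was chosen with earlier results of these data known, so this comparison describes it and is no independent test. The median log2 fold change was 2.90 over the members, a 7.49-fold difference, and −0.01 over all genes tested. Members ranged from 0.68 (Irf9) to 4.84 (Ifi44), and the highest adjusted p was 0.00026 (Cmpk2). Without Arpc4ΔCx3cr1 mouse 1, which had the highest level of 37 of the 38 members, 38 were again higher with a median of 2.76. In that fit 24.5% of all genes were higher. The plot of CPM by mouse shows the split between the genotypes in every row.

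**Figure D1:**
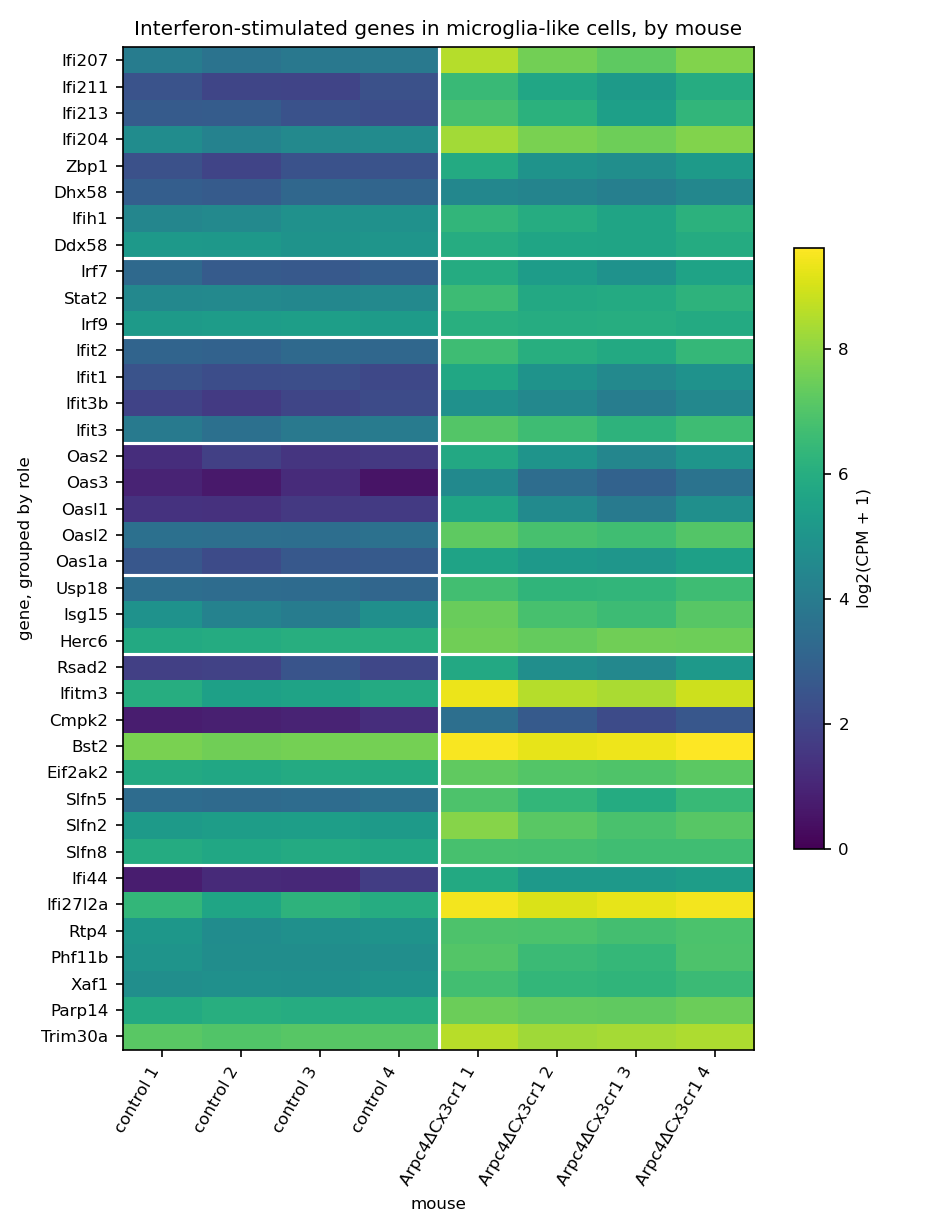
Level of each measured member in microglia-like cells of each mouse, as colour on the scale log2(CPM + 1), with 1 row per gene grouped by role and 1 column per mouse. All 4 Arpc4ΔCx3cr1 columns are brighter than the 4 control columns in each of the 38 rows, and mouse 1 is the brightest in 37 of them.

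Sensors of foreign or misplaced nucleic acids made up 8 members, and all 8 were higher. The largest differences among them were those of the DNA-binding Ifi200 genes. Ifi207 had 15.4, 11.7, 13.3 and 13.8 CPM in control mice 1 to 4 and 374, 187, 148 and 224 CPM in Arpc4ΔCx3cr1 mice 1 to 4. The lowest Arpc4ΔCx3cr1 mouse was thus far above the highest control mouse, and the log2 fold change was 4.12 ± 0.28 (SE, adjusted p = 1.06e-06). Ifi204 had 18.5 to 24.3 CPM in control and 178 to 313 CPM in Arpc4ΔCx3cr1 mice (log2 fold change 3.38). Ifi211 and Ifi213 were lower in level, at 2.9 to 5.96 CPM in control and 36.5 to 112 CPM in Arpc4ΔCx3cr1 mice (4.06 and 3.94). Zbp1, a sensor of left-handed nucleic acids, went from 4.01 ± 0.77 (SD, n = 4) to 37.2 ± 14.1 CPM. The cytoplasmic RNA helicases had smaller log2 fold changes than the Ifi200 genes. Ddx58 (RIG-I) had 35.0, 33.9, 29.9 and 31.1 CPM in control and 61.2, 48.9, 48.4 and 59.6 CPM in Arpc4ΔCx3cr1 mice, with a log2 fold change of 0.75 ± 0.09 (adjusted p = 8.26e-05). Ifih1 (MDA5) had a log2 fold change of 1.37 ± 0.16 and Dhx58 (LGP2), a regulator of the other helicases, 1.44 ± 0.14.

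The 3 transcription factors carry the signal into the nucleus. Irf7, the factor that amplifies interferon-α transcription, had 8.88, 5.76, 5.49 and 6.28 CPM in control and 60.3, 38.8, 29.1 and 47.3 CPM in Arpc4ΔCx3cr1 mice. Its log2 fold change was 2.79 ± 0.24 (adjusted p = 4.82e-06), and the groups lay well apart. Stat2 went from 21.8 ± 0.73 to 70.5 ± 18.3 CPM (1.69 ± 0.16). Irf9 had the smallest difference of the list, with 37.1 to 41.1 CPM in control and 58 to 66.8 CPM in Arpc4ΔCx3cr1 mice (0.68 ± 0.06, adjusted p = 8.09e-06).

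Antiviral effectors that act on viral RNA were among those with the lowest control levels. The IFIT proteins bind foreign RNA ends, and Ifit1 had 4.44, 3.77, 3.98 and 3.24 CPM in control and 52.7, 29.7, 22.1 and 29.2 CPM in Arpc4ΔCx3cr1 mice. The 4 IFIT genes had log2 fold changes between 2.90 (Ifit3) and 3.24 (Ifit2). Some proteins of the OAS family, though not all, make a messenger that activates RNase L. The 5 OAS members differed by 3.02 (Oas1a) to 4.05 (Oas2). Oas3 was near the limit of detection in control mice, at 0.41 to 1.29 CPM, against 22.4, 9.87, 7.13 and 11.7 CPM in Arpc4ΔCx3cr1 mice (4.01 ± 0.47, adjusted p = 4.94e-05). Oasl2, at the other end of the family in level, went from 10.6 ± 0.38 to 124 ± 20.8 CPM. Rsad2 (viperin), which makes a chain-terminating nucleotide, had 2.57, 2.68, 4.63 and 3.14 CPM in control and 54.8, 26.0, 21.5 and 36.2 CPM in Arpc4ΔCx3cr1 mice (3.37 ± 0.33). Cmpk2, its neighbour on chromosome 12, stayed at or under 10.4 CPM in every mouse and had the least certain difference of the list (2.60 ± 0.39). Eif2ak2 (PKR), a kinase that stops translation when it binds double-stranded RNA, was well expressed in control microglia and went from 55.7 ± 2.36 to 139 ± 13.7 CPM (1.32 ± 0.08).

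The membrane protein genes Bst2 and Ifitm3, together with Ifi27l2a, had the highest CPM of the list in Arpc4ΔCx3cr1 microglia. Bst2 (tetherin, which holds budding virions at the cell surface) had 203, 184, 193 and 193 CPM in control and 738, 618, 667 and 786 CPM in Arpc4ΔCx3cr1 mice, with a log2 fold change of 1.86 ± 0.08 (adjusted p = 6.79e-08). It was the 1 member with its highest level in mouse 4 and not in mouse 1. Ifitm3, which blocks the fusion of virions in endosomes, had 62.1, 43.3, 46.6 and 57.8 CPM in control and 645, 371, 338 and 478 CPM in Arpc4ΔCx3cr1 mice (3.14 ± 0.21). Ifi27l2a went from 49.4 to 82.5 CPM in control to 535 to 704 CPM in Arpc4ΔCx3cr1 mice (3.27 ± 0.15). The genotypes did not overlap for any of these 3 genes.

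ISG15, a ubiquitin-like modifier, and its enzymes were represented by 3 members. Isg15 had 28.7, 18.0, 15.6 and 26.4 CPM in control and 172, 112, 96.6 and 138 CPM in Arpc4ΔCx3cr1 mice (2.58 ± 0.22, adjusted p = 4.97e-06). Usp18, which removes ISG15 from proteins and also damps signalling at the interferon receptor, went from 8.1 to 10.0 CPM in control to 77.5 to 104 CPM in Arpc4ΔCx3cr1 mice (3.29 ± 0.12). Herc6, the ligase that attaches ISG15 in mice, had a higher control level (61.3 ± 3.48 CPM) and a smaller difference (1.53 ± 0.06). The 3 Schlafen genes spread over a similar range, with 3.16 for Slfn5, 2.01 for Slfn2 and 0.94 for Slfn8. Of the 7 remaining members, Ifi44 had the largest difference of all, from 0.70, 1.19, 1.18 and 2.33 CPM in control to 56.6, 36.0, 35.2 and 40.2 CPM in Arpc4ΔCx3cr1 mice (4.84 ± 0.26, adjusted p = 2.7e-07). Trim30a (1.30), Parp14 (1.42), Xaf1 (1.69), Phf11b (2.01) and Rtp4 (2.03), of varied function, differed by less.

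The genes around this list were measured in the same fit. Of 59 tested genes on a list of other interferon-stimulated genes, 50 were higher and 1 was lower, with a median log2 fold change of 0.90. The largest rises in it were Ifi206 (3.92), Ifi208 (3.88), Oas1g (3.44), Phf11a (3.25) and Ifi203 (3.24), relatives of members, and the gene that fell was Trim30c (−0.92). Of 16 tested GTPases and other genes best known as induced by interferon-γ, 12 were higher, led by Iigp1 (3.56), Gbp4 (3.36), Tgtp2 (3.28), Gbp6 (3.20) and Ifi47 (2.57), and Gbp7 was lower (−1.42). Receptor and signalling genes were more mixed, with 9 of 18 higher and 3 lower. Those that were higher include Ifnar1 (0.61), Tyk2 (0.45), Irf1 (0.44) and Ifngr2 (0.28). Ifngr1 (−0.48), Jak1 (−0.24) and Irf2 (−0.18) were lower. Among 17 tested genes of nucleic acid sensing upstream of interferon, 5 were higher and 4 lower, shares near the 22.9% and 23.1% of all genes, so the list as a whole did not stand apart by its counts. Ikbke, an interferon-inducible kinase that acts on IRF3, rose most (from 1.01 ± 0.15 to 11.4 ± 3.09 CPM, 3.51 ± 0.26), followed by Trim25 (1.05), Traf3 (0.56), Cgas (0.45) and Traf6 (0.23). The genes that were lower were Tmem173 (STING, −0.73, from 208 ± 7.19 to 126 ± 11.8 CPM), Tlr3 (−0.34), Irf5 (−0.29) and Unc93b1 (−0.28). Of 10 tested nucleases and editors that limit sensing, Adar (1.08), Pld3 (0.50), Samhd1 (0.47) and Dnase2a (0.22) were higher and Pld4 (−0.39) and Rnaset2b (−0.33) lower.

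Interferon transcripts themselves were scarce. Of 21 ligand genes none passed the filter on low counts in microglia, and 17 had no UMI there. Ifnb1, the interferon-β gene, had 24 UMIs in 9 of 17009 microglia-like cells. Of these, 23 UMIs in 8 cells came from Arpc4ΔCx3cr1 mice (18, 4, 1 and 0 UMIs in mice 1 to 4) and 1 UMI in 1 cell from control mouse 4. A single cell of mouse 1 held 14 of the 24 UMIs, and 4 of the 9 cells belonged to cluster 11, described below. No fold change is given for so few molecules, and Ifnb1 had no UMI in the 424 CAM-like, 345 monocyte-like and 309 T cell-like cells. Ifng was counted with 18 UMIs in 15 of 176 T cell-like cells of Arpc4ΔCx3cr1 mice and 9 UMIs in 7 of 133 of control mice.

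To compare cells of different depth, each microglia-like cell was thinned at random to 2000 UMIs, which left out 327 Arpc4ΔCx3cr1 and 288 control cells with fewer. A cell was called high if at least 10 of its 2000 UMIs (0.5%) fell on members. This is a cut through a continuous range and not a cell type. High cells made up 43.9, 28.1, 26.4 and 37.1% of Arpc4ΔCx3cr1 mice 1 to 4 and 2.49, 2.13, 1.37 and 2.53% of control mice 1 to 4, or 33.9% ± 8.17 against 2.13% ± 0.54 (SD, n = 4). The 2 groups did not overlap, and 1671 Arpc4ΔCx3cr1 and 130 control cells lay near the cut with 8 to 11 UMIs. Without thinning, the shares of cells with at least 0.5% were 31.7% and 1.79%. No test is given for a score over the members.

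**Figure D2:**
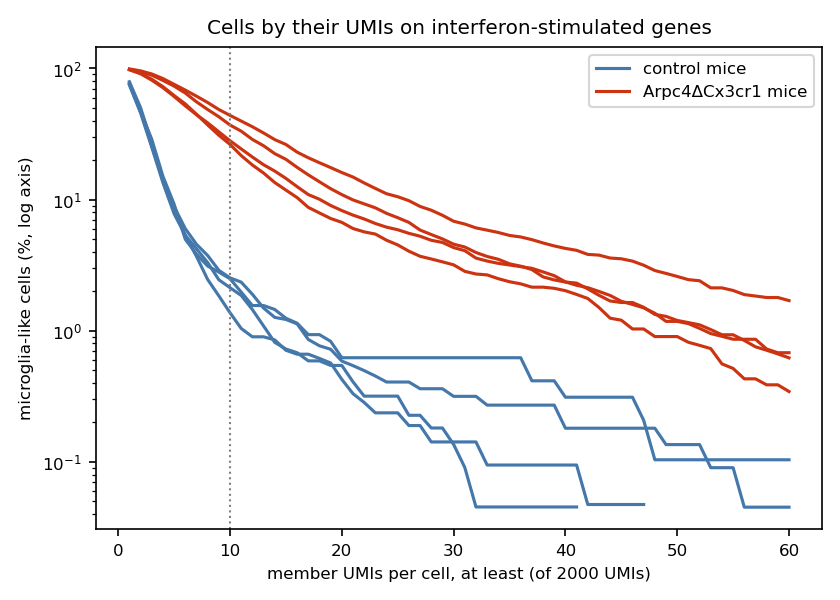
Percent of microglia-like cells of each mouse (log axis) with at least the number of member UMIs on the horizontal axis, after thinning each cell to 2000 UMIs, with the cut of 10 UMIs dotted. Each line is 1 mouse, and the 4 Arpc4ΔCx3cr1 lines lie above the 4 control lines from the first UMI on.

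The whole distribution was higher, not only its upper end. The median cell held 8, 6, 6 and 7 member UMIs of 2000 in Arpc4ΔCx3cr1 mice 1 to 4 and 1, 1, 2 and 1 in control mice 1 to 4. Cells without any member UMI made up 1.66% ± 0.67 of Arpc4ΔCx3cr1 and 23.2% ± 1.90 of control cells. In the cells under the cut, the mean was 4.77 ± 0.32 UMIs in Arpc4ΔCx3cr1 and 1.74 ± 0.07 in control mice. At the upper end, 129 Arpc4ΔCx3cr1 and 4 control cells held 50 or more. Over all microglia-like cells without thinning, members took 0.592, 0.432, 0.401 and 0.499% of UMIs in Arpc4ΔCx3cr1 mice 1 to 4 and 0.116, 0.104, 0.112 and 0.115% in control mice 1 to 4. In empty droplets, which hold ambient RNA of the whole pool, members took 0.35% of UMIs, under the cut for a high cell. With 10% of each sum subtracted as RNA of this makeup, 38 members were again higher, and 23.1% of all genes were. The median log2 fold change of the members was 3.67.

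The members differed in how they spread over the cells. For each member, cells were called high from the UMIs of the other members alone. The cut of 10 UMIs was kept, so fewer cells counted as high for an abundant member such as Bst2 or Ifi27l2a. Shares of members that differ in level are therefore not strictly comparable. Such cells held 62.1% of a member's UMIs in Arpc4ΔCx3cr1 mice for the median member, from 41.6% (Irf9) to 90.0% (Ifit3b), and 11 members had over 80% there. These 11 include Ifit1 (89.7%), Rsad2 (89.7%), Oas3 (89.0%) and Isg15 (82.5%), so most of their transcripts came from high cells. Bst2 (46.1%), Ifi27l2a (42.8%) and Irf9 had lower shares there, although their levels too were higher in such cells of Arpc4ΔCx3cr1 mice, with 1221 against 524 CPM for Bst2 and 76.9 against 52.8 CPM for Irf9. In cells that were not high, Ifi207 still had 132 CPM in Arpc4ΔCx3cr1 against 6.54 CPM in control mice (20.2-fold), and Ifi27l2a 486 against 49.7 CPM (9.78-fold). Isg15 had 32.0 against 11.9 CPM there (2.68-fold) and Ifit1 4.92 against 1.88 CPM (2.61-fold). For 35 of the 38 members all Arpc4ΔCx3cr1 mice lay above all control mice in these cells, with a median of 3.52-fold. Over 12677 tested genes that are no member, 13.8% were separated in this way in the cells that were not high, and the median was 0.932-fold. For those genes the cut was on all 38 members, and for a member it left that member out, so the cells were not quite the same. Without Arpc4ΔCx3cr1 mouse 1 the members gave 36 and 3.03-fold. The share of other genes was not computed without that mouse. With fewer mice separation is easier, so the 36 cannot be read against the 13.8%. The groups overlapped for Ddx58 (31.6 against 32.6 CPM), Ifit3b and Cmpk2. Among the few control cells that were high, levels were close to those of high Arpc4ΔCx3cr1 cells or above for some members, as for Isg15 (498 CPM in control, 326 CPM in Arpc4ΔCx3cr1) and Ifit3 (315 and 256 CPM), and below for others, as for Ifi213 (77.4 and 178 CPM). High cells of both genotypes were picked by the same cut on members, so a likeness in these levels partly follows from the choice of cells.

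Microglia-like cells were also clustered, without the members and the other listed interferon-stimulated genes, and gave 12 clusters, numbered from 0 by size. The genotypes filled different clusters. Clusters 1, 2, 4 and 7 held 94.2 to 96.1% of each control mouse's microglia-like cells, and clusters 0, 3, 5, 6, 10 and 11 held 77.8 to 98.2% of those of each Arpc4ΔCx3cr1 mouse. Cluster 3, led by Xist, Fn1 and Tsix, came to 97.9% from Arpc4ΔCx3cr1 mouse 1. Since genes that differ between genotypes formed these clusters, the following values are a description. Members took 0.088 to 0.101% of UMIs in control cells of clusters 1, 2, 4 and 7, and in the large Arpc4ΔCx3cr1 clusters 0.367% (cluster 0, led by Ctnna3 and Tafa1), 0.562% (cluster 3), 0.425% (cluster 5, led by Ttr, Cst7 and Cxcl13) and 0.629% (cluster 6, led by Ms4a7). The value of cluster 3 is the mean of only 2 mice (0.501% and 0.622%), and its cells pooled had 0.503%. In the clusters where both genotypes had a mouse with at least 10 cells, the mean was higher in Arpc4ΔCx3cr1 cells, as with 0.241% against 0.088% in cluster 1, except in cluster 10, where the only such control mouse had 0.952% and the 4 Arpc4ΔCx3cr1 mice 0.554% ± 0.11. In cluster 0 the means were close, at 0.346% ± 0.07 in 3 control and 0.367% ± 0.05 in 4 Arpc4ΔCx3cr1 mice.

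Cluster 11 had the highest share of UMIs on members. The listed interferon-stimulated genes were left out of the genes that formed the clusters, and its leading genes were Cxcl10, Rsad2, Iigp1, Ifit3, Ifit1, Ifit2, Ifit3b and Cxcl9. It held 229 cells, 2.36% of Arpc4ΔCx3cr1 and 0.157% of control microglia-like cells, and drew from all 4 Arpc4ΔCx3cr1 mice with at most 30.1% from 1 mouse (mouse 1). Members took 2.47% ± 0.31 of its UMIs (SD, n = 4 Arpc4ΔCx3cr1 mice, 2.22 to 2.93%). In cluster 8, whose top genes encode the chemokines Ccl4 and Ccl3 and which both genotypes filled, members took 0.416% ± 0.05 in Arpc4ΔCx3cr1 and 0.102% ± 0.03 in control mice. Cells on the other genotype's side were few. The 150 control cells in clusters 0, 3, 5, 6, 10 and 11 had 0.426 to 0.716% of UMIs on members, close to the 0.409 to 0.597% of the Arpc4ΔCx3cr1 cells there, and the 180 Arpc4ΔCx3cr1 cells in clusters 1, 2, 4 and 7 had 0.232 to 0.648%, with 3 to 131 such cells per mouse. Of the tag UMIs in the cells of a mouse, 76.6 to 97.8% were of its own tag, and whether some cells were assigned to the wrong mouse was not tested.

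**Figure D3:**
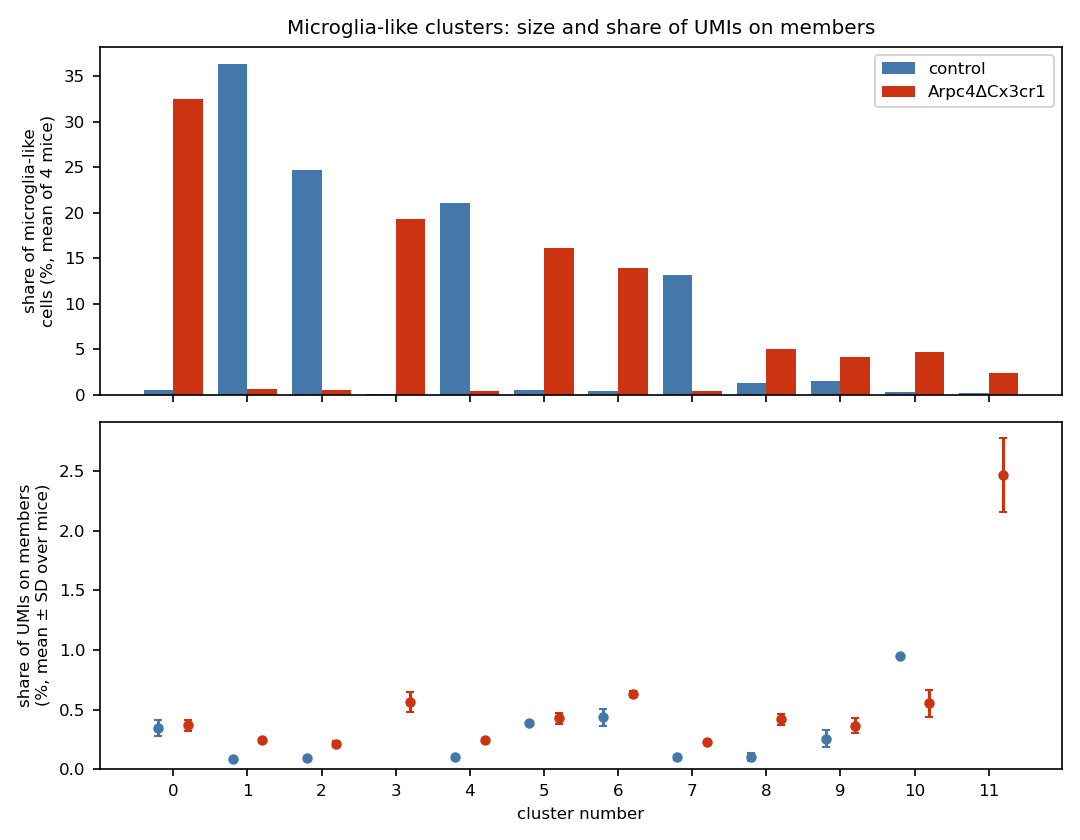
Upper panel, share of the microglia-like cells of each genotype in each of the 12 clusters (bars, mean of 4 mice, in percent). Lower panel, percent of UMIs on members in each cluster (points, mean over mice with at least 10 cells there, with SD where there are 2 or more mice), which is highest in cluster 11.

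Other cell types of the same brains were compared next, since Cx3cr1-Cre can act in macrophages and monocytes besides microglia. Arpc4 itself gave no call in these classes, with log2 fold changes of 0.28 ± 0.21 in CAM-like, −0.00 ± 0.19 in monocyte-like and −0.29 ± 0.21 in T cell-like cells (edgeR, adjusted p from 0.60 to 0.997). In control mice, microglia had the lowest mean CPM of the 4 classes for 27 of the 38 members. Members together took 0.498% ± 0.04 of UMIs in control CAM-like, 0.502% ± 0.10 in monocyte-like and 0.274% ± 0.06 in T cell-like cells, against 0.112% ± 0.01 in microglia-like cells (SD, n = 4). In Arpc4ΔCx3cr1 mice the shares were 1.00% ± 0.30, 0.831% ± 0.12, 0.426% ± 0.06 and 0.481% ± 0.08. The lowest Arpc4ΔCx3cr1 mouse lay above the highest control mouse in all 4 classes, and the range in Arpc4ΔCx3cr1 microglia (0.401 to 0.592%) overlapped those in control CAM-like (0.448 to 0.538%) and monocyte-like cells (0.369 to 0.611%).

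**Figure D4:**
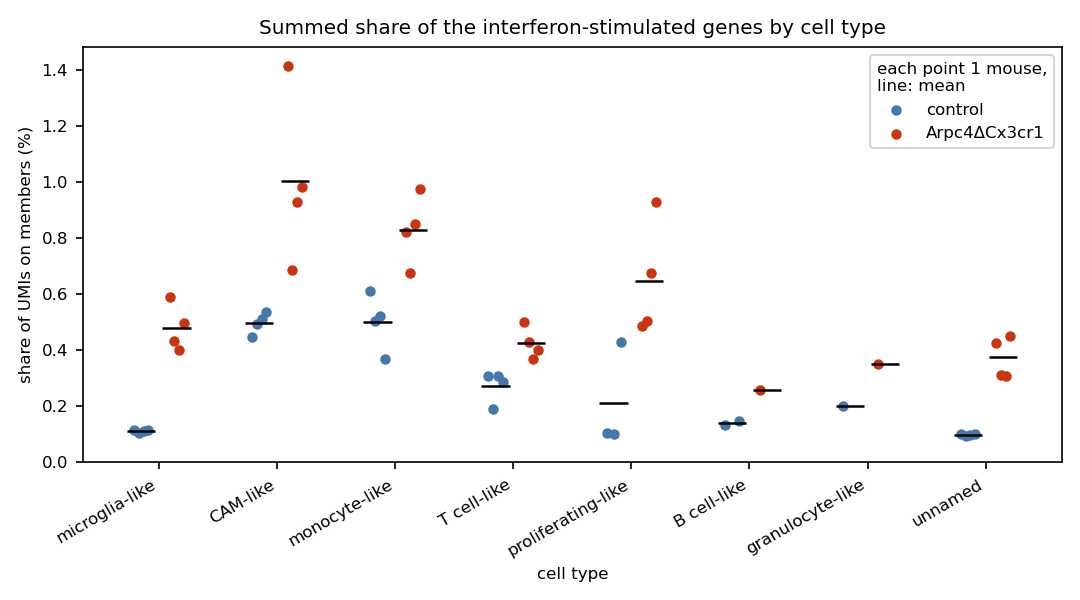
Percent of UMIs on members in each cell type, with 1 point per mouse with at least 10 cells of that type and a line at the mean. Microglia-like cells of control mice sit near 0.112%, below all points of CAM-like and monocyte-like cells.

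In CAM-like cells, 25 members passed the filter and 6 of them were higher, none lower, where 0.652% of the 3373 genes tested were higher and 0.415% lower. The median over the 25 was 1.11 and over all genes 0.01. The 6 were Isg15 (2.06 ± 0.40), Irf7 (1.80 ± 0.39), Ifi27l2a (1.59 ± 0.32), Xaf1 (1.29 ± 0.28), Ifi207 (1.16 ± 0.23) and Slfn2 (1.12 ± 0.24), with adjusted p from 0.0145 to 0.0227. At least Irf7 passed the filter on low counts only through its levels in Arpc4ΔCx3cr1 mice. The count of 6 and the median over the 25 are therefore descriptions of the members that passed. Ifi27l2a had 929, 1088, 1032 and 1008 CPM in control and 5771, 1287, 3235 and 1917 CPM in Arpc4ΔCx3cr1 mice, with no overlap but a wide spread. Isg15 overlapped, with 41.3 to 124 CPM in control and 509, 33.9, 413 and 401 CPM in Arpc4ΔCx3cr1 mice. With each mouse left out, 0.134% to 0.836% of all genes were higher. The count of members called rests on single mice. By edgeR it was 0 without control mouse 1, 2 or 3, where 263 to 277 genes had an unadjusted p under 0.05, 5 without control mouse 4, 10 without Arpc4ΔCx3cr1 mouse 2 and 4 without mouse 1, with 22 to 45 CAM-like cells per Arpc4ΔCx3cr1 mouse and 48 to 113 per control mouse.

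T cell-like cells, with 25 members tested, had 5 higher and none lower, where 1.43% of 4204 genes were higher and 2.45% lower. Ifi44 was at 0, 4.76, 4.48 and 0 CPM in control and 77.2, 69.6, 59.0 and 55.9 CPM in Arpc4ΔCx3cr1 mice (4.17 ± 0.59, adjusted p = 7.34e-05). Ifi207 had 47.9, 14.3, 0 and 0 CPM in control and 116, 69.6, 64.0 and 94.6 CPM in Arpc4ΔCx3cr1 mice (2.81 ± 0.54, adjusted p = 0.00209). The genotypes did not overlap for either gene, and control mouse 1 came closest for Ifi207. Ifi44, Ifi207 and Usp18 passed the filter on low counts only through their levels in Arpc4ΔCx3cr1 mice, as did Oasl2, which was not called. Ifi44, Ifi207 and Usp18 enter the count of 5, and Oasl2 too enters the median. Both the count and the median are thus descriptions of the members that passed. Usp18 (1.81 ± 0.36), Ifit3 (1.22 ± 0.34) and Bst2 (0.88 ± 0.19, from 219 to 431 CPM in control to 456 to 740 CPM) made up the rest. The median over the 25 was 0.64, against 0.03 over all genes, and the count lay between 4 and 6 with each mouse left out (4 without Arpc4ΔCx3cr1 mouse 1). In those fits 0.895% to 1.60% of all genes were higher. The 8 mice shared 1 pool of ambient RNA, in which Ifi44 was at 12.9 and Ifi207 at 79.3 CPM.

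Monocyte-like cells had 2 of 18 tested members higher and none lower, where 3.32% of 3129 genes were higher and 4.92% lower. They were Ifi204 (1.09 ± 0.28, adjusted p = 0.0295), with 87.7, 97.4, 68.5 and 50.9 CPM in control and 148, 148, 141 and 272 CPM in Arpc4ΔCx3cr1 mice, and Ifitm3 (0.52 ± 0.14, adjusted p = 0.0339), with 2188 to 2912 against 2933 to 4358 CPM. The genotypes did not overlap for either gene. The 2 edgeR calls fell to 0 without Arpc4ΔCx3cr1 mouse 3 or control mouse 2, 3 or 4, where 505 to 617 genes had an unadjusted p under 0.05, to 1 without Arpc4ΔCx3cr1 mouse 1, and rose to 3 without mouse 2, and Arpc4ΔCx3cr1 mouse 4 had 14 such cells. In these fits 1.11% to 2.89% of all genes were higher. With all mice, the median was 0.55 over the 18 members and 0.00 over all genes. Ifitm3 shows the difference in base level between classes, since control monocyte-like cells held more of it than the microglia of any Arpc4ΔCx3cr1 mouse.

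**Figure D5:**
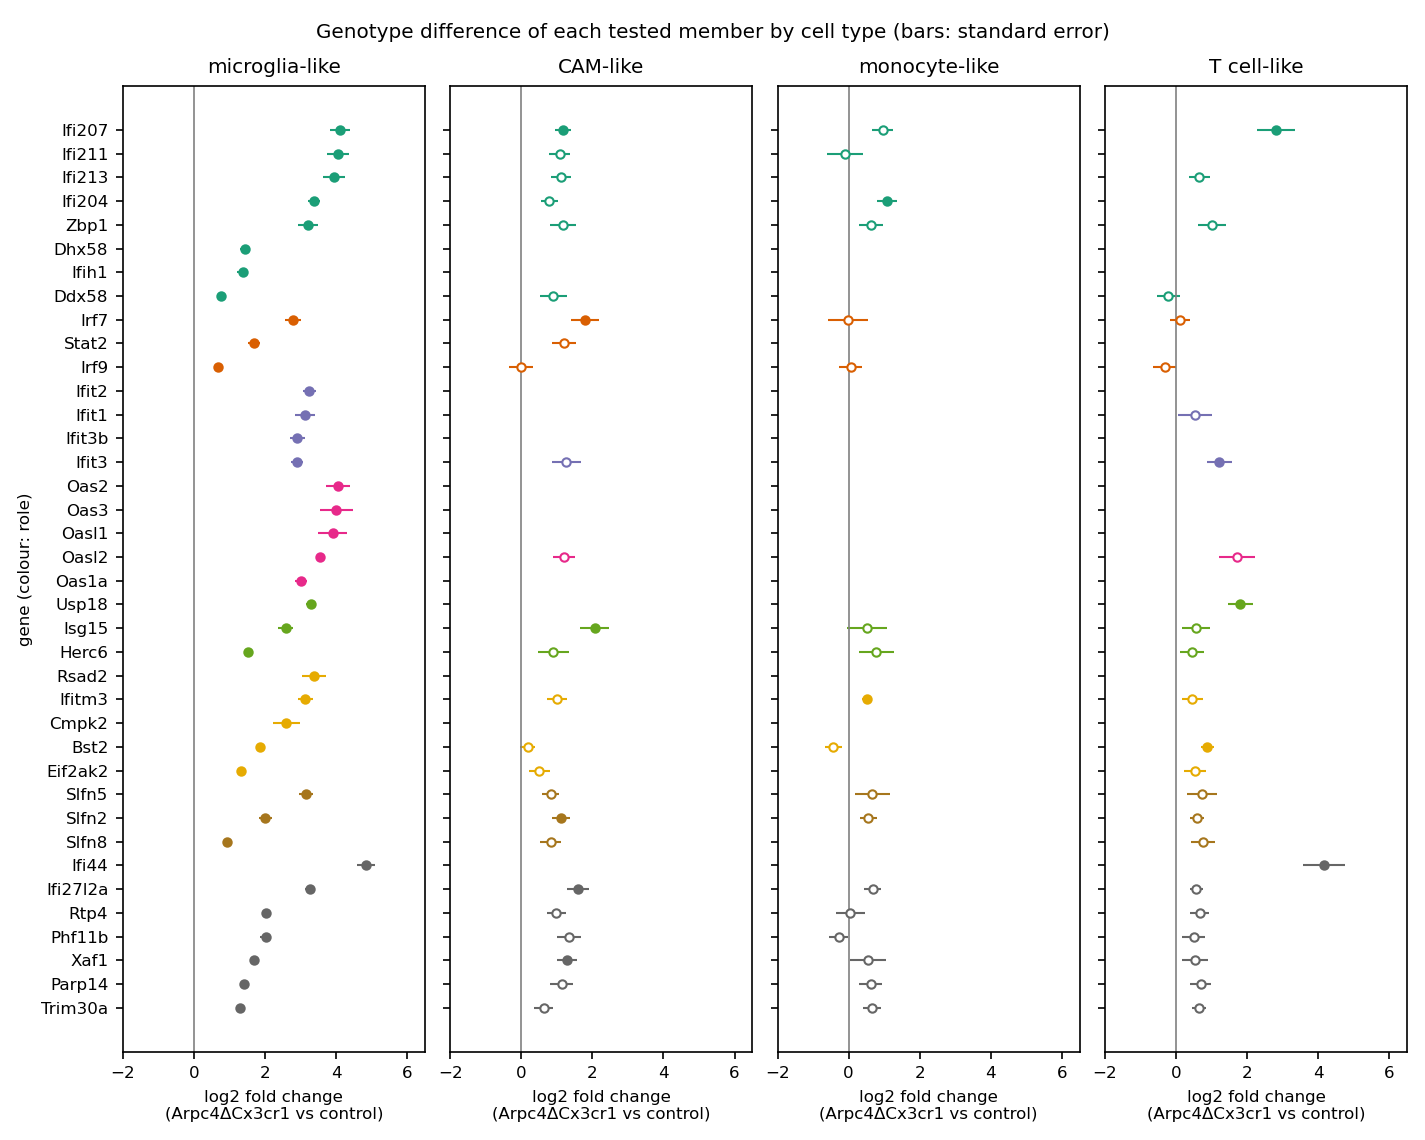
Log2 fold change (Arpc4ΔCx3cr1 against control) of each member that passed the filter in the named cell type, with its standard error as a bar and the role as colour. Filled points passed the threshold, which holds for all 38 in microglia-like, 6 of 25 in CAM-like, 2 of 18 in monocyte-like and 5 of 25 in T cell-like cells.

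The difference between the classes was tested as an interaction, with the mouse as a block. It compares log2 fold changes, so smaller means a smaller ratio and not a smaller gain in UMIs. The mean share of UMIs on members was 0.498% in control and 1.00% in Arpc4ΔCx3cr1 CAM-like cells. In microglia-like cells it was 0.112% and 0.481%. The genotype difference was smaller in CAM-like than in microglia-like cells for 21 of 38 members and larger for none, where 5.15% of 11205 genes were smaller and 0.955% larger. It was smaller in monocyte-like cells for 24 members and larger for none (5.53% and 2.44% of 11433 genes), and smaller in T cell-like cells for 20 and larger for none (2.96% and 0.696% of 11343 genes). Members that did not pass the filter in the smaller class itself were 5 of the 21, 11 of the 24 and 4 of the 20. The median interaction was −1.15, −2.30 and −1.46 over the members and −0.17, 0.00 and −0.01 over all genes. Ifi207 differed less in CAM-like cells by −3.02 ± 0.22 and in monocyte-like cells by −3.12 ± 0.30, but its interaction in T cell-like cells (−1.22 ± 0.62, adjusted p = 0.457) did not pass. Isg15 did not pass in CAM-like cells (−0.68 ± 0.28, adjusted p = 0.178) and was smaller in monocyte-like (−2.21 ± 0.35) and T cell-like cells (−1.95 ± 0.25). Ddx58, Slfn8, Parp14, Ifih1, Irf9, Ifit2, Oasl1 and Cmpk2 passed in none of the 3 tests. Without Arpc4ΔCx3cr1 mouse 1 the counts were 22, 19 and 19, where 4.73%, 4.87% and 2.92% of all genes were smaller. Without the mouse as a block they were 16, 20 and 13, where 4.15%, 5.34% and 2.07% of all genes were smaller. These fits share the microglia of the same mice, so the 3 counts are not independent of each other.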

How the data were processed

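CD45+ brain cells of 4 control and 4 Arpc4ΔCx3cr1 mice were measured in 1 pooled library with a tag per mouse. The authors aligned reads to mm10 with Cell Ranger, assigned barcodes to mice by tag and deposited UMI counts without normalization or removal of ambient RNA. Members and lists were chosen with earlier results of these data known.

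Filters of 200 detected genes and 20% mitochondrial UMIs kept 19863 of 19864 barcodes. Counts were log-normalized and clustered with Seurat 5.3.0 (10000 variable genes, of which 97 listed interferon-stimulated genes were removed, 20 principal components, 20 neighbours, resolution 0.8). Clusters were named from marker genes. Clusters of very low depth stayed unnamed and were not tested. No doublet caller was run.

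UMIs were summed per mouse and class and compared with edgeR 4.0.16 (R 4.3.3, filterByExpr, TMM, quasi-likelihood test, Benjamini-Hochberg adjustment over all genes tested). CPM beside such results use TMM library sizes; those of high cells, empty droplets and levels by cell type use plain totals. The step was tested on simulated counts. In the genotype fits, the filter kept a gene that reached its limit in as many mice as the smaller genotype group held. Some members passed it only through Arpc4ΔCx3cr1 mice, such as Ifi44, Ifi207, Usp18 and Oasl2 in T cell-like and Irf7 in CAM-like cells. Classes were included with at least 10 cells of a mouse. DESeq2 1.42.0, other scalings and filters, a replicate block, a subtraction of 10% ambient RNA and leaving out each mouse were alternatives. Named genes are all members by role, Arpc4, and up to 5 rises and 5 falls of each other list. Positions are from GENCODE vM21, matched by identifier for 38 members. Nothing in the labels says more of the mice than genotype, age and number, and p-values measure the spread between these mice. The value of 1 gene that this rule would name is not reported here.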

Additional observations from a re-analysis of the deposited data

Results flagged for a closer look

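Values far from the other 3 mice of a group were looked for in 216 groups of 4 mice and found in 11, where chance gives about 1 in 20. In microglia, Phf11b had 30.6 CPM in 1 control mouse. In CAM-like cells, Herc6 had a high value of 145 CPM in 1 control mouse and Xaf1 a low one of 92.7 CPM in 1 Arpc4ΔCx3cr1 mouse. In monocyte-like cells, 1 Arpc4ΔCx3cr1 mouse was high for Ifi204 (272 CPM), Ifi211 (259 CPM), Irf7 (259 CPM), Isg15 (531 CPM) and Phf11b (222 CPM); this class held 14 to 114 cells per Arpc4ΔCx3cr1 mouse. There, 1 control mouse was high for Zbp1 (134 CPM) and 1 low for Irf9 (48.9 CPM). In T cell-like cells, Usp18 was high in 1 control mouse (42.9 CPM).

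The genotype difference in log2 fold change was smaller than in microglia for 21 members in CAM-like, 24 in monocyte-like and 20 in T cell-like cells, by the interaction test. Over all genes tested 5.15%, 5.53% and 2.96% were smaller. Members also took 0.35% of the UMIs of empty droplets (23963 UMIs), which serve only as the makeup of the ambient RNA subtracted in 1 alternative.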

How the results depend on the processing

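In microglia, 38 members were higher under all 16 alternatives, with medians from 2.33 (all cells of the sort) to 3.67 (ambient RNA subtracted), and none of the 608 single values changed its call. Over all genes 14.0% (no filter) to 24.5% (without Arpc4ΔCx3cr1 mouse 1) were higher. Without a filter, 18 members were called in CAM-like, 4 in monocyte-like and 11 in T cell-like cells, where 0.577%, 1.27% and 0.837% of all genes were higher. With the mice numbered 1 to 4 as a replicate block, the counts were 38 in microglia, 0 in CAM-like (edgeR, 294 genes with an unadjusted p under 0.05), 3 in monocyte-like and 5 in T cell-like cells. In these fits 21.6%, 0.148%, 3.77% and 1.17% of all genes were higher. Same-numbered mice did not deviate together (correlations from −0.08 to −0.01), so the numbers are only names and pair nothing. The interaction has each mouse as its block, and without that block it gave 13 members in T cell-like cells in place of 20. The share of all genes was 2.07% in place of 2.96%. Leaving out each mouse gave 0 to 10 members in CAM-like and 0 to 3 in monocyte-like cells. Over all genes 0.134% to 0.836% and 1.11% to 3.00% were higher in these fits. The share of high cells became 68.1% and 8.58% (Arpc4ΔCx3cr1 and control) at a limit of 5 UMIs, 10.5% and 0.545% at 20, and 15.3% and 1.11% without Bst2, Ifitm3, Ifi27l2a and Slfn2, whose removal also lowered the share of UMIs to 0.293% and 0.0755%. Thinned to 1000 UMIs with a limit of 5, 37.7% and 2.78% were high. No value changed direction where a call was involved. Depth limits the smaller classes, where 13 to 20 of 38 members were too low to test.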
